A study of Homo sapiens with 3 samples.

Results

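The 41 genes described here encode proteins of base excision repair (19 genes), nucleotide excision repair (16 genes) and mismatch repair (6 genes). The list follows their role in DNA repair and uses no peak value, but it was drawn up with earlier results of these data known, so the shares given for it are descriptions. The genes come from 20162 protein-coding genes of GENCODE release 44 mapped to hg19, and all 41 were found there by symbol. ChIP-seq of YTHDC1, a nuclear protein that binds m6A (N6-methyladenosine) in RNA, gave its sites on the chromatin of A549, an established lung adenocarcinoma cell line. The samples form a single group of 3 replicates, whose labels name no knockdown and no damaging agent and do not say whether they were separate cultures, and the cells were crosslinked with formaldehyde before the chromatin was sheared. The authors pooled the reads of the 3 replicates before calling 6368 broad peaks, so each peak has 1 value for the pool, and no spread between replicates, depth per sample or comparison of conditions could be had. No input or IgG library was analysed, and whether the same regions would be enriched without the antibody was not tested.

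The study followed the response to DNA damage, in which these pathways act on damaged or mispaired bases. In base excision repair a DNA glycosylase removes a single altered base, an endonuclease cuts the strand at the empty site, and a polymerase and a ligase fill and seal the gap. Nucleotide excision repair takes out a stretch of the strand around bulky lesions such as those made by ultraviolet light, either anywhere in the genome or where RNA polymerase has stalled on a transcribed strand. Mismatch repair corrects errors left by replication. A549 cells were taken as labelled, since a peak set holds no measure of transcription with which to check the line.

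A gene was counted as having a peak at a start when a peak came within 200 bases of any annotated transcript start. The value given for each peak is the number written by the authors' peak caller, read here as −log10 of its q-value, so that a value above 1.301 is a q-value under 0.05. Of the 41 repair genes, 9 had a peak at a start (22.0%), against 15.7% of all protein-coding genes. These were NEIL1, NEIL2, OGG1, POLB and PARP2 among the 19 base excision repair genes (26.3%), DDB1 and ERCC1 among the 16 nucleotide excision repair genes (12.5%), and MSH6 and PMS1 among the 6 mismatch repair genes (33.3%). The pathways hold few genes each, and no test was made of these shares.

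To show the sequence at or beside the strongest start peaks, the starts of the 6 genes with the highest −log10 q other than POLB are printed, with CpG dinucleotides in capitals. POLB had the second highest value and is left out because of where it lies in the genome and not for its composition, and its peak had the lowest GC share of the 9, at 56.3%. Each run holds the 100 bases before and the 30 bases from the annotated start nearest to the peak midpoint, on the strand of the gene, read from the GRCh37 assembly. For DDB1 and PMS1 the canonical start was taken instead, as the window at the nearest start lay mostly in untranslated exon sequence.
NEIL1, chr15:75640101-75640230, plus strand: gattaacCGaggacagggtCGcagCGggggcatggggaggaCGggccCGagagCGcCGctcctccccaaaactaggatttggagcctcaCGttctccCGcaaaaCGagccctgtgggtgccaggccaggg
DDB1, chr11:61100548-61100677, minus strand: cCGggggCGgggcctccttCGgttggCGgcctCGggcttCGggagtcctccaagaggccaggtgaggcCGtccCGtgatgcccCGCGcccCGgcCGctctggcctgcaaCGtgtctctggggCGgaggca
PARP2, chr14:20811674-20811803, plus strand: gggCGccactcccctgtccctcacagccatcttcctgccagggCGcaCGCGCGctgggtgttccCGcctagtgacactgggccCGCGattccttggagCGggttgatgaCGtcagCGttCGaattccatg
MSH6, chr2:48010624-48010753, plus strand: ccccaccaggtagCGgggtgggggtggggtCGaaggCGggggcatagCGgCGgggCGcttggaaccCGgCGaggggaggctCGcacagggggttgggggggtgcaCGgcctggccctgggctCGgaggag
OGG1, chr3:9791528-9791657, plus strand: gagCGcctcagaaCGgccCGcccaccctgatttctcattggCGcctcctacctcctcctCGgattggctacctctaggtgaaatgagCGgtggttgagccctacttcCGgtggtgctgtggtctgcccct
PMS1, chr2:190649076-190649205, plus strand: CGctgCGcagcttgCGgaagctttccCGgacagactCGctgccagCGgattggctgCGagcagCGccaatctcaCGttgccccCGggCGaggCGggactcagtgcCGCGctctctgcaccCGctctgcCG

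The peak covered all 130 bases of the runs shown for NEIL1, DDB1 and MSH6 and 106 of those for OGG1, but none of those for PARP2, whose peak lies upstream, and PMS1, whose peak lies downstream. For these, the 100 bases around the peak midpoint follow, with CpG again in capitals.
PARP2 peak centre, chr14:20811405-20811504, plus strand: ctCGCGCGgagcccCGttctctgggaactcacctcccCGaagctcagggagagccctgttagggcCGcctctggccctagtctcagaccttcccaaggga
PMS1 peak centre, chr2:190649432-190649531, plus strand: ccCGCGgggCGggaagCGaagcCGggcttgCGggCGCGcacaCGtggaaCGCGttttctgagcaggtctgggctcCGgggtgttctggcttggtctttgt
The 6 runs at starts, which do not include POLB, hold 7 CpG (OGG1) to 16 CpG (PMS1) and are 61.5% GC (OGG1) to 76.9% GC (MSH6). OGG1 has a GC box (GGGCGG, here as CCGCCC) at −83, CCAAT boxes on the opposite strand (ATTGG) at −64 and −38, and the ETS core CCGGAA (as TTCCGG) at 5, counting the start as base 1, with negative positions before it. PMS1 has CCAAT boxes in opposite directions at −52 and −35.

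Base excision repair genes carried the strongest and the widest start peaks of the 41 genes. NEIL1, a glycosylase for oxidised pyrimidines, had the highest value, a −log10 q of 4.2 (chr15:75639685-75640708), which was stronger than 96.8% of the 2998 peaks at protein-coding starts. This peak was 1024 bases wide, and its midpoint lay at −5 bases from an alternative start and 816 bases downstream of the canonical one, over intron 1. It also came within 200 bases of the start of a lncRNA gene, ENSG00000275645, on the opposite strand. POLB, the polymerase that fills the gap, had a peak of 1027 bases (chr8:42195309-42196335, −log10 q 2.88) that reached from the upstream side over exon 1 and part of its coding sequence. The NEIL1 and POLB peaks were each wider than 98.0% of the peaks at protein-coding starts, of which 2.3% were at least 1000 bases wide.

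The other base excision repair peaks were narrower. PARP2, which senses strand breaks, had a peak of 287 bases (chr14:20811311-20811597, −log10 q 1.89) that ended 177 bases before its nearest start and reached none of its transcripts. That peak lay inside a lncRNA gene on the opposite strand, ENSG00000259001, which GENCODE tags as the host of a non-coding RNA. In the RefSeq gene order of GRCh38.p14, RPPH1, the RNA of ribonuclease P, is the gene next to PARP2 on that side. RPPH1 was not annotated at this locus in the gene set used here, so the overlap of the peak with it was not tested. The peak is counted for PARP2 by distance alone. OGG1, the glycosylase for oxidised guanine, had the narrowest peak of the 9, at 234 bases (chr3:9791400-9791633, −log10 q 1.52), with its midpoint at −112 bases from the nearest start. NEIL2, a glycosylase active on oxidised bases, had a peak wholly downstream of its canonical start, from 22 bases on, over exon 1 (chr8:11627241-11627544). Its −log10 q of 1.03 was the lowest of the 9 and corresponds to a q-value of 0.0936.

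Of the remaining 14 base excision repair genes none had a peak at a start. These include the uracil glycosylases UNG and SMUG1, MUTYH, which removes adenine paired with oxidised guanine, NTHL1 and NEIL3, which act on oxidised bases, TDG and MBD4, which act on thymine mispaired with guanine, and MPG, which removes alkylated purines. APEX1, which cuts the strand at the empty site, the break sensor PARP1, the flap endonuclease FEN1, and the ligase LIG3 were also without one. APTX and XRCC1 had peaks just beyond the window. APTX, which removes adenylate left by failed ligation, had a peak 243 bases upstream of its nearest start (chr9:33025371-33025670, −log10 q 3.17), and this peak lay at the start of the neighbouring gene DNAJA1. The nearest APTX start is an alternative one, and the peak midpoint was at −23894 bases relative to the canonical start. None of the 56 annotated APTX transcripts reached the peak. XRCC1, the scaffold that brings LIG3 to the gap, had a peak 315 bases from a start (chr19:44080030-44080275, −log10 q 1.14), at the start of the divergent gene PINLYP.

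**Figure D1:**
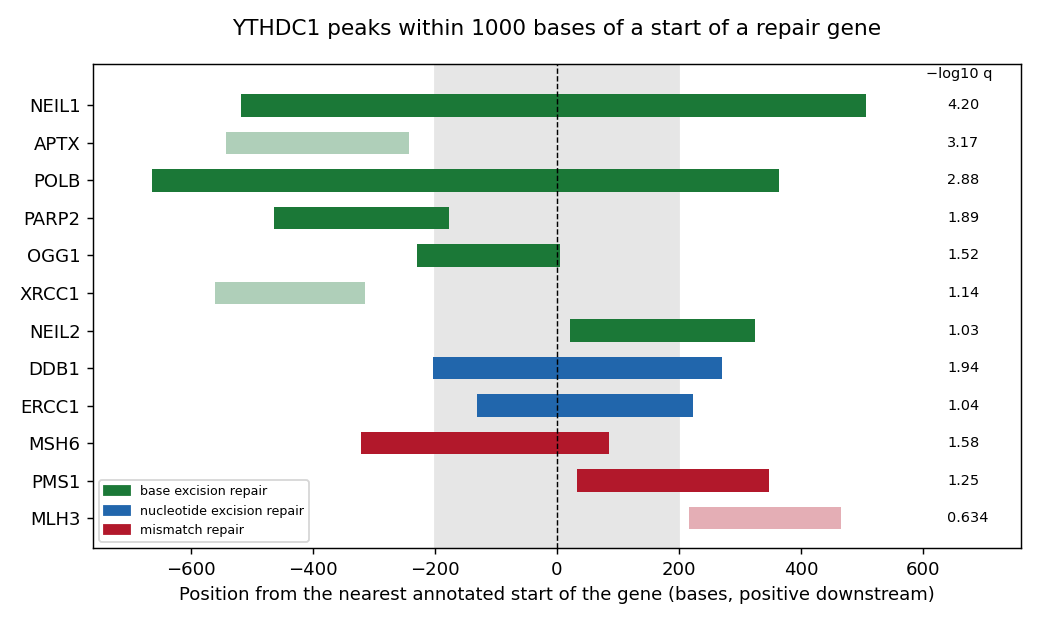
Extent of each YTHDC1 peak within 1000 bases of a start of a repair gene (x axis, bases from the nearest annotated start of that gene, positive downstream), with genes by pathway on the y axis and the −log10 q of each peak at the right. Full colours are the 9 peaks within 200 bases (grey band), pale bars are the 3 just outside, at APTX (243 bases), XRCC1 (315) and MLH3 (217).

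Among nucleotide excision repair genes, DDB1 and ERCC1 had peaks centred close to a start. DDB1, the adaptor of the ubiquitin ligase that recognises ultraviolet lesions in chromatin, had a peak of 474 bases (chr11:61100243-61100716, −log10 q 1.94) over exon 1, its midpoint 34 bases downstream of the nearest start and 98 bases from the canonical one. The same peak lay at a start of TKFC, the divergent neighbour, so that it cannot be assigned to either gene. ERCC1, the partner subunit of the nuclease that makes an incision beside the lesion, had a peak of 354 bases over exon 1 (chr19:45926875-45927228) with its midpoint 46 bases downstream. Its −log10 q of 1.04 is a q-value of 0.0917. With peaks of a q-value under 0.05 alone, DDB1 was the 1 gene of the 16 that remained, against 8.96% of all protein-coding genes. No test was made of this count.

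The other 14 nucleotide excision repair genes had no start peak. None was found at XPA, the scaffold of the incision complex, at the nuclease genes ERCC4 and ERCC5, or at the helicase genes ERCC2 and ERCC3 of the transcription and repair factor TFIIH. The genes of its further subunits, GTF2H1, GTF2H3, GTF2H4 and GTF2H5, had none either. ERCC6, ERCC8 and UVSSA, which act where RNA polymerase has stalled, were without one, as were RAD23B and CETN2, which encode partners of the protein that senses helix distortion. The nearest peak to a start lay 7826 bases from RAD23B, 31743 bases from GTF2H1 and over 100000 bases from 8 of the 14. The furthest was 12825111 bases from CETN2 on chromosome X, which held 73 peaks in all. Such distances were not taken over all protein-coding genes, so nothing about these genes is read from them.

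In mismatch repair, MSH6 and PMS1 had start peaks, centred inside the genes when measured from the canonical start. MSH6, the subunit that recognises single base mismatches, had a peak of 407 bases over exon 1 with its coding part (chr2:48010403-48010809, −log10 q 1.58), with its midpoint 322 bases downstream of the canonical start and −118 bases from a later annotated start. PMS1, a MutL homologue, had a peak of 315 bases in intron 1 (chr2:190649324-190649638, −log10 q 1.25, a q-value of 0.0558), beginning 33 bases after its nearest start. The peak of MLH3, another MutL homologue, missed the window, at 217 bases from a start (chr14:75517696-75517943). Its −log10 q of 0.634 placed it at rank 6346 of the 6368 peaks. MSH3, which recognises small loops, PMS2, which cuts the strand to be corrected, and the exonuclease gene EXO1 had their nearest peaks 83992, 49320 and 354619 bases from a start.

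The 9 start peaks were set beside those of all protein-coding genes in strength, width and composition, with no test. Their median −log10 q was 1.58 (range 1.03 to 4.2), against 1.39 over all 2998 peaks at protein-coding starts, and 6 of the 9 (66.7%) had a q-value under 0.05, against 55.6%. Median widths were 354 and 373 bases, median GC shares 67.2% and 66.7%, and median ratios of observed to expected CpG 0.722 and 0.804. Midpoints lay downstream of the nearest start in 4 of the 9 peaks, against 57.2% of all peaks at protein-coding starts. Only NEIL2 had the canonical start as the one nearest to its peak, although 8 of the 9 peaks came within 200 bases of the canonical start, all but that of NEIL1. These counts on the canonical start were not taken over all peaks at protein-coding starts, so they are not read as a trait of the repair genes.

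**Figure D2:**
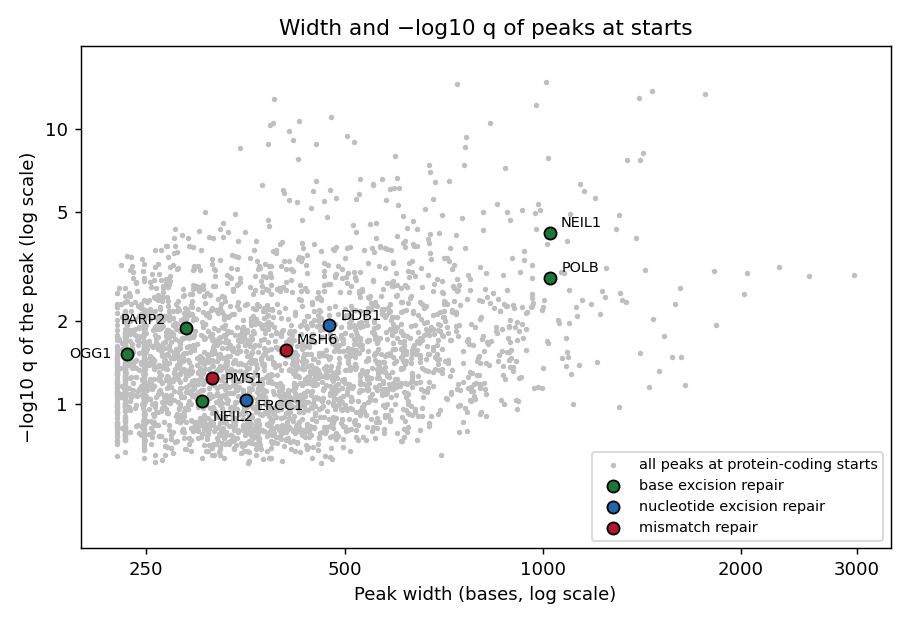
Width in bases (x axis, log scale) and −log10 q (y axis, log scale) of the 2998 peaks at protein-coding starts (grey points) and of the 9 peaks at starts of repair genes (coloured by pathway). NEIL1 and POLB stand at the wide end, at 1024 and 1027 bases, and the other 7 lie between 234 and 474 bases.

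The count was repeated with other definitions of a start and of a peak. With the canonical start alone, 8 of the 41 genes had a peak (19.5%), against 11.7% of protein-coding genes. Windows of 500 and of 1000 bases each gave 12 genes (29.3%), with APTX, XRCC1 and MLH3 added, against 18.6% and 20.0%. With a q-value under 0.05 there were 6 (14.6%), namely DDB1, OGG1, NEIL1, POLB, PARP2 and MSH6, against 8.96%. Repair genes also have more annotated starts than most genes, with a median of 13 against 5, and so offer more windows. Of the 23 repair genes with at least 13 starts 7 had a peak, and 26.4% of protein-coding genes with that many starts had one. Of the 18 repair genes with fewer starts 2 had a peak, against 13.6% of such protein-coding genes.

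**Figure D3:**
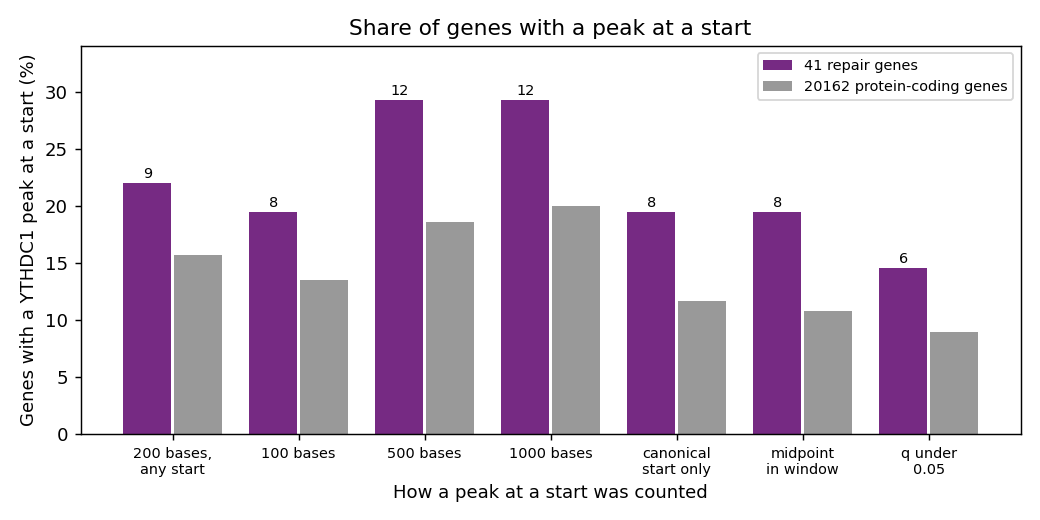
Percent of genes with a YTHDC1 peak at a start (y axis) for the 41 repair genes (purple, number of genes above each bar) and all 20162 protein-coding genes (grey), under different ways of counting (x axis). The repair genes run from 14.6% to 29.3% and the protein-coding genes from 8.96% to 20.0%.

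Promoters of repair genes with and without a start peak had close median compositions. In the 250 bases before and 50 after the canonical start, the median GC share was 64.3% in the 9 genes with a start peak and 64.5% in the 32 without. Over all protein-coding genes the medians were 66.7% with and 62.7% without a peak. The median CpG ratio was 0.858 in repair genes with a peak and 0.895 in those without, and 0.862 and 0.744 over all protein-coding genes. MSH6 had the most GC-rich promoter of the 41 (78.0%) and MLH3 the least (51.0%).

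Motif matches on either strand of the same 300 bases were counted for all genes. The GC box GGGCGG was present in 31 of the 41 promoters (75.6%), against 60.9% of all protein-coding promoters, and in 7 of the 9 with a start peak, against 73.6% of all protein-coding genes with one. ERCC1 and NEIL1 were without it. CCAAT was found in 51.2% against 35.9%, and in 4 of the 9 with a start peak, against 32.5% of all protein-coding genes with one. The ETS core CCGGAA was found in 34.1% against 22.6%, but in 2 of the 9 with a start peak, against 35.3%. GCGCATGC, part of the NRF1 motif, was found in 9.76% against 4.26%. It was in 0 of the 9 with a start peak, against 4.68% of all protein-coding genes with one, and nothing is read from that count. The TATA box TATAAA was in 0 of the 41, against 9.80%. GGACT, a form of the m6A consensus, was in 43.9% against 45.1%. These are matches of letters and were not tested for a relation with the peaks.

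Repair genes more often had a gene starting on the other strand just upstream than protein-coding genes did as a whole, by count and with no test. A start on the opposite strand lay within 1000 bases upstream of the canonical start in 18 of the 41 genes (43.9%), against 24.3% of protein-coding genes. Of these 18, DDB1 (beside TKFC) and PMS1 (beside ORMDL1) had a peak. The genes without one include ERCC8 beside NDUFAF2, APEX1 beside OSGEP, MUTYH beside TOE1, NTHL1 beside TSC2 and PMS2 beside AIMP2. Of the 23 repair genes with no such neighbour annotated, 7 had a peak. PARP2 is among these 7, but RPPH1, next to it on the upstream side, was not annotated in the gene set used here. Whether RPPH1 would count as such a neighbour was not tested. Over all protein-coding genes, 20.6% of those with a divergent start and 14.1% of the others had a peak.

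Peaks in gene bodies, within the span of the gene but beyond 200 bases of its starts, were found in 4 of the 41 genes (9.76%), against 8.66% of protein-coding genes. There were 5 such peaks, in ERCC1, XRCC1, MLH3 and MSH6. The strongest lay in ERCC1 (chr19:45958910-45959577, 668 bases, −log10 q 5.23, rank 154 of all peaks), in a region spanned by 1 of its 18 annotated transcripts and upstream of its canonical transcript, its midpoint at −32068 bases relative to the canonical start. The other ERCC1 body peak (chr19:45971065-45971368, −log10 q 0.883) lay at a start of FOSB, a gene of an AP-1 transcription factor, and was also spanned by that 1 transcript. The MSH6 body peak (chr2:47958477-47958788, −log10 q 0.767) was spanned by 2 of 26 transcripts, lay upstream of the canonical one and overlapped the pseudogene RBISP5. MLH3 had its body peak in intron 1 of the canonical transcript, and the XRCC1 peak was spanned by 2 of 9 transcripts and lay upstream of the canonical start. No body peak of the 41 genes overlapped a coding exon of a canonical transcript.

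Neither a start peak nor a body peak was found in 30 of the 41 genes. Among these 30, the nearest peak to any start lay under 10000 bases away at APTX (243 bases), SMUG1 (2432 bases) and RAD23B (7826 bases), and over 100000 bases away at 11 genes. Over the 32 genes with no start peak the median distance was 51010 bases. Matching counts and distances were not taken over all protein-coding genes. Whether repair genes lie further from peaks than other genes was not tested.

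**Figure D4:**
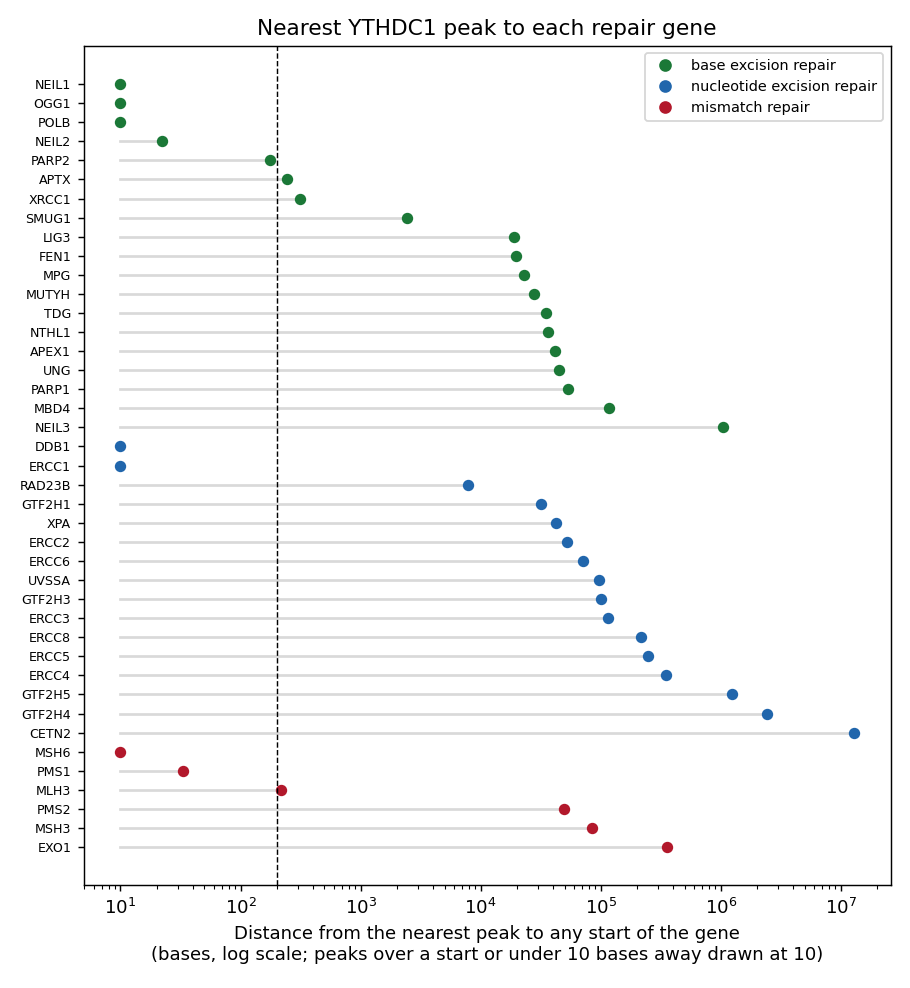
Distance in bases from the nearest YTHDC1 peak to any annotated start of each of the 41 repair genes (x axis, log scale, distances under 10 drawn at 10), by pathway on the y axis. The dashed line marks 200 bases, and the distances run up to 12825111 bases at CETN2.

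Partners of these pathways that are not among the 41 were counted by the same rule. Of 37 such genes, 9 had a peak at a start (24.3%), against 15.7% of all protein-coding genes. DNA ligase 1, encoded by LIG1, had a −log10 q of 2.3, and POLD3, a subunit of a replicative polymerase, had 2.32. The POLD3 peak ended 182 bases before an alternative start of POLD3 and also lay at a start of LIPT2. Its midpoint was at −99206 bases relative to the canonical start of POLD3. MNAT1, a subunit of the kinase part of TFIIH, had 2.07, and RPA1, which coats single-stranded DNA, had 1.70. The RPA1 peak also lay at a start of SMYD4. CUL4A and CUL4B, the cullins to which DDB1 binds, had 0.765 and 0.891. The CUL4A peak also lay at a start of PCID2, and its midpoint was at −659 bases relative to the canonical start of CUL4A. RFC1, POLD1 and MSH4 had 0.972, 1.06 and 0.971. The RFC1 and POLD1 peaks lay 184 and 163 bases upstream of their nearest starts and reached none of their transcripts. The values of CUL4A, CUL4B, RFC1, POLD1 and MSH4 are q-values above 0.05. With a q-value under 0.05, LIG1, POLD3, MNAT1 and RPA1 remained of the 37, against 8.96% of all protein-coding genes.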

How the data were processed

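YTHDC1 ChIP-seq peaks of A549 cells (3 replicates, 1 group) were analysed. Per the study's methods the authors aligned the reads to hg19, combined the replicates, and ran MACS2 in broad mode on the pool (q-value 0.1, broad cutoff 0.25), with no control library named. The methods name Bowtie2 and the submitters' processing notes BWA, which was not settled. A merging step that the peak names imply is not described. The deposited column 5 is read as −log10 of the q-value, since its lowest value, 0.610, lies just above 0.602, −log10 of the broad cutoff. The depth of each sample is unknown.

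Starts, genes and exons came from GENCODE 44 mapped to GRCh37, the same assembly as hg19, and 10 repeated gene identifiers were dropped. For 281 protein-coding genes, none of them among the 41, the outermost start replaced an unmapped canonical one. An overlap of 1 base counted. Promoters held 250 bases before and 50 after the canonical start, and motifs were searched on both strands. RefSeq (GRCh38.p14) gave only the gene order beside PARP2. The canonical-start runs of DDB1 and PMS1 and the peak-centre runs of PARP2 and PMS1 were chosen after the data were seen. All 41 genes were accounted for, and partners and motifs were listed by function. The members and lists were chosen with earlier results of these data known. No test was run, since the pooled file has no replicates. The counting was tested on simulated peaks. Alternatives were other windows, starts, overlaps and peak thresholds. Python 3.11.15, numpy 2.4.6, pandas 2.3.3 and matplotlib 3.10.9 were used.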

Additional observations from a re-analysis of the deposited data

How the results depend on the processing

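The count of 9 repair genes with a start peak ran from 6 to 12 under 9 alternatives of window, starts, overlap and peak threshold, and that of base excision repair genes from 4 to 7. With peaks of a q-value under 0.05, nucleotide excision repair kept 1 of 16 genes and mismatch repair 1 of 6, against 8.96% of protein-coding genes. Among peaks above the median of column 5 these counts were also 1 of 16 and 1 of 6, against 8.64%. Both pathways hold too few genes to compare such shares. Body peaks were left in 1 gene, ERCC1, at a q-value under 0.05. The share of all protein-coding genes with a body peak at that threshold was not taken. The median midpoint of the 9 start peaks, −5 bases from the nearest start, was 124 bases downstream when measured from the canonical start. Of the 9 peaks, 2 lay at a start of another gene within 200 bases. With 500 bases there were 4, and with protein-coding neighbours alone 1. No such share was taken over all peaks at protein-coding starts, so nothing about the repair genes is read from these counts. No replicate could be left out, since the reads were pooled before peak calling. No paired analysis was possible because there is 1 group and 1 pooled file. The pooled depth is unknown, so a gene without a peak has no peak called at this depth, which does not show that YTHDC1 was absent.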
